A study of Mus musculus with 6 samples.

Results

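Protocadherins are cell adhesion molecules of the cadherin superfamily. All genes whose symbol in the array annotation begins with Pcdh were taken, provided that a probe set was given to that gene alone. This gave 35 of the 18193 genes measured, namely 22 of the beta cluster, 1 of the gamma cluster and 12 non-clustered genes. The alpha cluster had 0 members by this rule, because its 6 probe sets were each given to several alpha genes. RefSeq lists 14 alpha, 22 beta, 22 gamma and 12 non-clustered genes under these symbols, so the beta and non-clustered groups are complete and the gamma cluster is represented by Pcdhgc4.

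The tissue was dorsal telencephalon of E14.5 mouse embryos, dissected into Trizol. Both groups were on a C57BL\6 background and all embryos were labelled male. The 3 control samples were labelled wild type (WT), with no allele named. The 3 conditional knockouts (cKO) lacked ESET, also called SETDB1, which methylates lysine 9 of histone H3, with deletion by Emx2Cre, a Cre recombinase under the control of a gene of dorsal forebrain progenitors. Whether the WT embryos carried the Cre allele is not given in the sources used here, so an effect of that allele and an effect of the deletion cannot be told apart. Each sample was hybridised to 1 single-colour Affymetrix array, and an array is called by its group and its title number, such as WT 1. The design speaks of 3 embryos per genotype, and nothing else says that the samples were separate litters, so p-values measure the spread between these samples.

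The clustered protocadherins lie in 3 tandem arrays on one chromosome. Each alpha or gamma gene joins its own variable exon to constant exons shared by its cluster, whereas each beta gene is a single exon with no shared part. A neuron is known to switch on a small set of them from alternative promoters, under control of CTCF and cohesin, and the proteins bind like to like across cell contacts, which lets a neuron tell its own branches from those of other neurons. The non-clustered protocadherins have separate loci and mark particular regions and cell types of the embryonic brain.

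Array medians ran from 91.1 to 119 in intensity, and log2 values of array pairs correlated at 0.96 or more across probe sets, which are not independent replicates. On the brightest of 3 Setdb1 probe sets the WT arrays read 1162, 1185 and 1033 and the cKO arrays 704, 696 and 499.9. Every cKO array lay below every WT array, with the log2 fold change at -0.83 (SE 0.17, limma over all genes gave adjusted p = 0.137), short of the threshold of 0.05. The further Setdb1 probe sets had cKO means of 33.5 and 22.8, at -0.44 and -1.14. The labels do not say which exons were deleted. Of the tissue's defining genes, 11 of 13 were measured, and 0 were below an intensity of 16 on all arrays. Emx1 was between 693 and 1242, and Neurod6, of cortical neurons, between 13756 and 22332. Of the 11 genes, 2 were lower in cKO without overlap and 1 was higher, against 7.64% and 7.9% of all genes. None passed the threshold. The higher one was Nes, at 0.30 (SE 0.15). Emx2, the gene after which the Cre is named, went from 1241 ± 138.1 to 688 ± 49.6 (SD, n = 3; -0.83, adjusted p = 0.0714 in limma), and Eomes, of intermediate progenitors, from 4820 ± 211 to 3126 ± 316 (-0.63, adjusted p = 0.140 in limma). The arrays numbered 3 stood apart. On WT 1, WT 2, cKO 1 and cKO 2, Xist read from 34.1 to 59.0 and the Y-linked Eif2s3y from 1927 to 2186. WT 3 had 17294 for Xist and 22.2 for Eif2s3y, against its male label. cKO 3 had 8811 and 961, so it carried both signals, and whether it came from 1 embryo was not tested. Summed intensities of 10 erythroid genes were 69495 and 74190 on these arrays and between 11296 and 17213 on the other 4. Values without both arrays numbered 3 are therefore given beside the main results.

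The beta cluster was lower in the knockout. Its 22 genes had a median log2 fold change of -0.68, cKO minus WT on the scale log2(intensity + 16), against 0.01 over all genes, and 18 of the 22 were below 0. Past an adjusted p of 0.05 in limma over all genes, 3 fell (Pcdhb9, Pcdhb19 and Pcdhb21) and 0 rose. That is 13.6% of the cluster, where 0.242% of all genes were called lower and 0.385% higher. In 10 of the 22, or 45.5%, every cKO array read below every WT array, against 7.64% of all genes, and in 0 the reverse held. A fold change below -1 was found in 8 of the 22 genes and in 132 of all 18193. In bulk tissue, fewer expressing cells and less RNA per cell cannot be told apart.

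Pcdhb9 read 211, 180.5 and 225 on the WT arrays and 59.8, 58.4 and 63.96 on the cKO arrays. The groups lay far apart and the cKO arrays were close together. The means were 205 ± 22.9 and 60.7 ± 2.90 (SD, n = 3), a fold change of -1.53 on the log2 scale (SE 0.13, adjusted p = 0.00897 in limma). Pcdhb21 read 162, 123.4 and 213 in WT and 53.7, 45.6 and 41.5 in cKO. All cKO arrays were well below the lowest WT array, and the fold change was -1.51 (SE 0.21, adjusted p = 0.0445 in limma). Pcdhb19 read 133, 97.8 and 112 in WT and 33.6, 34.5 and 49.8 in cKO. Here too no cKO array reached the WT range, with a fold change of -1.24 (SE 0.17, adjusted p = 0.0492 in limma).

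These calls rest on 6 arrays. With both arrays numbered 3 left out, the 3 fold changes were -1.49, -1.27 and -1.38 and limma called 0 of the 22 beta genes, with 0 genes called lower and 8 called higher over the whole table (1779 genes had an unadjusted p under 0.05). Pcdhb9 lost its call without WT 1 (adjusted p = 0.0683), without cKO 1 (0.0636) or without cKO 2 (0.0661), and Pcdhb19 and Pcdhb21 lost theirs in each of the 6 fits that left out 1 array, while their fold changes stayed between -1.37 and -1.14 and between -1.69 and -1.33.

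**Figure D1:**
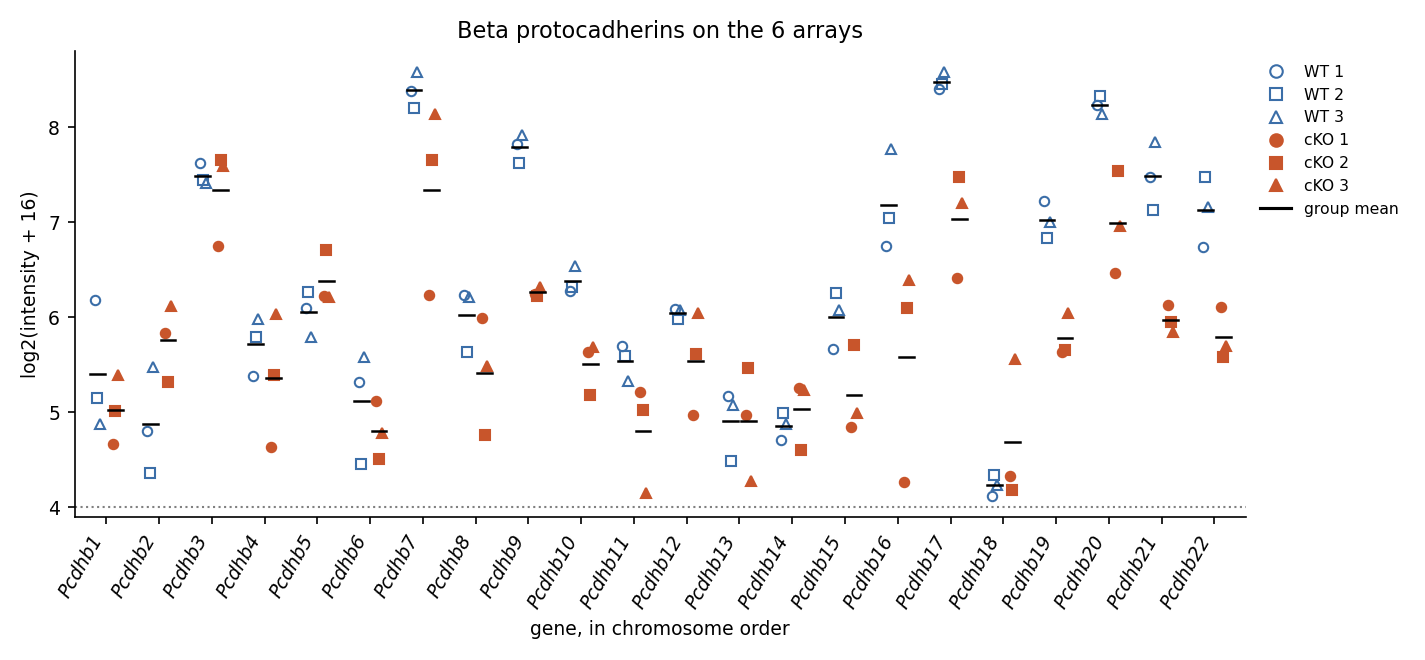
Log2(intensity + 16) of the 22 beta protocadherins on each of the 6 arrays, in chromosome order; open blue symbols are WT, filled orange symbols cKO, the shape gives the array number, black bars are group means and the dotted line marks an intensity of 0. In 10 genes, among them Pcdhb9, Pcdhb17 and Pcdhb19 to Pcdhb22, all cKO arrays lie below all WT arrays.

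A further 7 beta genes had groups that did not overlap but did not pass the threshold. Pcdhb22 read 90.9, 162 and 127 in WT and 52.8, 31.7 and 35.7 in cKO, a fold change of -1.33 (SE 0.24, adjusted p = 0.0885). Pcdhb17 read 323, 334 and 365 in WT and 69.2, 161 and 131 in cKO. Its WT arrays were nearly level and its cKO arrays spread more widely, at a fold change of -1.45 (SE 0.28, adjusted p = 0.111). Pcdhb17 passed with a pseudocount of 64 (adjusted p = 0.0345) and with trend and robust settings in eBayes (0.0271).

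Pcdhb20 read 285, 304 and 266 in WT and 72.4, 170.2 and 108 in cKO (-1.24, SE 0.27). Pcdhb7 read 317, 279 and 367 in WT and 59.0, 186 and 266 in cKO (-1.05, SE 0.47). In this gene cKO 3 came close to the lowest WT array and cKO 1 was far below it. Pcdhb16 was at -1.60 (SE 0.59), the lowest fold change of the cluster and the one with the widest error, since its cKO arrays ran from 3.19 to 67.7. Pcdhb10, from 67.4 ± 8.32 to 29.9 ± 8.43, and Pcdhb11, from 30.7 ± 5.93 to 13.2 ± 10.1 (SD, n = 3), were at -0.88 and -0.74.

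The other 12 beta genes had groups that overlapped. Pcdhb3 read 181, 158 and 154 in WT and 91.8, 185 and 177 in cKO. Its signal was well above the pseudocount, and only cKO 1 was low, so the fold change was -0.16 (SE 0.26). Pcdhb5 was at 50.9 ± 10.9 in WT and 68.4 ± 17.3 in cKO (SD, n = 3), at 0.33 (SE 0.20). Pcdhb2 was at 14.96 ± 12.3 and 39.5 ± 14.9, at 0.88 (SE 0.33, adjusted p = 0.463). Pcdhb15, at -0.82, Pcdhb8, at -0.62, and Pcdhb12, at -0.50, were lower on average. The Pcdhb15 value comes from a probe set with a name ending in _s_at. The other Pcdhb15 probe set was at 0.39, from a WT mean of 2.76. Pcdhb1, Pcdhb4 and Pcdhb6 lay between -0.38 and -0.31, each about 1 SE from 0. Pcdhb13 and Pcdhb14 had WT means of 14.7 and 13.0 and Pcdhb18 of 2.77, all below the pseudocount of 16, too dim to show a fall.

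Dim signal limits the whole cluster. All 22 beta genes had a mean log2 value below the median of all genes, and 4 had a WT mean below 16. When the cluster was divided at its own median of mean signal over the 6 arrays, the 11 genes with higher signal had a median fold change of -1.24, with 9 of 11 lower without overlap. The 11 with lower signal had a median of -0.36, with 1 of 11. The pseudocount pulls fold changes of dim genes towards 0, and the division used the same arrays. It therefore cannot show whether signal and fold change are related. Pcdhb3 and Pcdhb5 were among the 11 with higher signal, at -0.16 and 0.33. A pseudocount of 1 moved the cluster median to -1.05 and one of 64 to -0.30, with 18 and 17 of the 22 genes below 0.

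Divided in the middle of the chromosome order, both the first 11 and the last 11 beta genes had 9 below 0. The first 11 had a median of -0.38, with 4 lower without overlap, and the last 11 a median of -1.24, with 6. A difference along the chromosome was not tested. The first 6 genes, Pcdhb1 to Pcdhb6, picked out after the values were seen, all had groups that overlapped, and their fold changes ran from -0.38 to 0.88. At the far end, Pcdhb19, Pcdhb20, Pcdhb21 and Pcdhb22 were all between -1.51 and -1.24. Signal and position were not separated here.

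**Figure D2:**
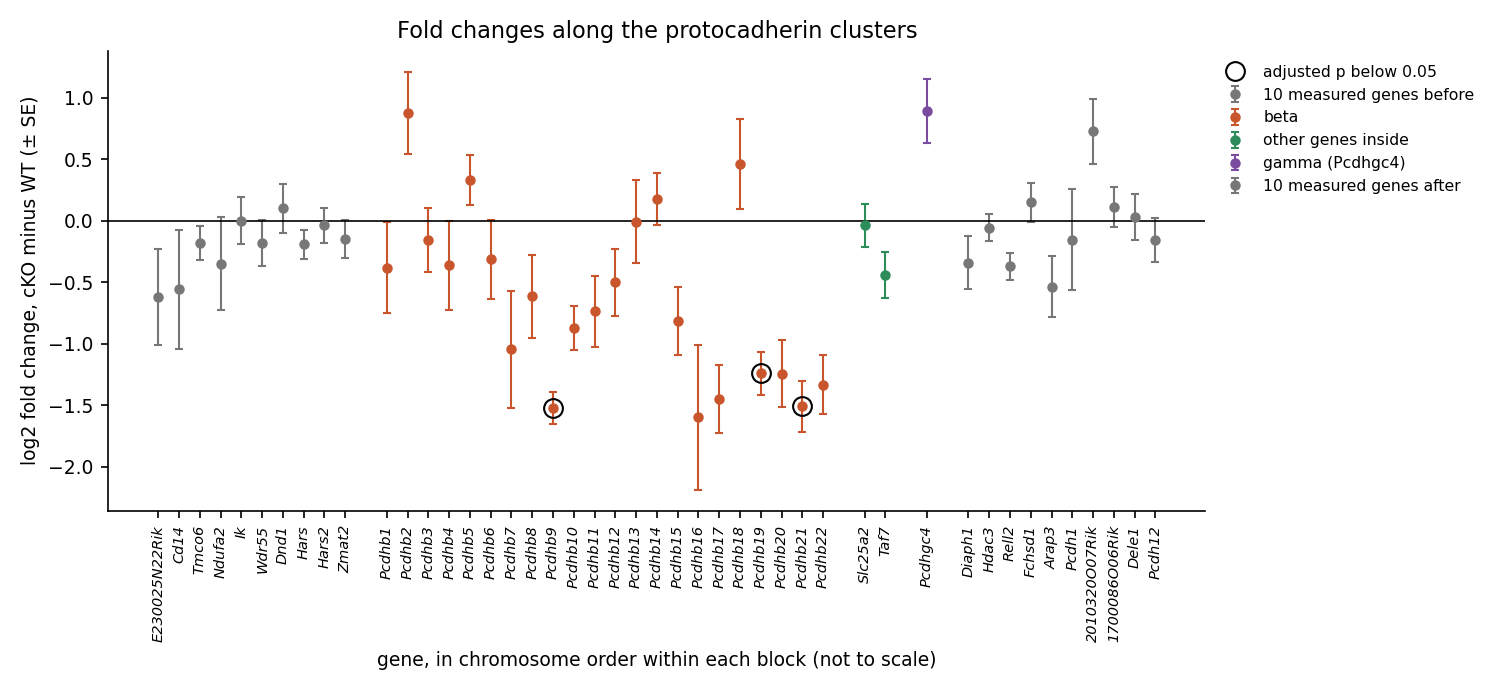
Log2 fold changes, cKO minus WT, with SE bars (limma, 3 arrays per group) for the beta genes in chromosome order, Pcdhgc4, the other measured genes inside the clusters and the 10 measured genes on each side; rings mark adjusted p below 0.05. The ringed genes are Pcdhb9, Pcdhb19 and Pcdhb21, while the genes on both sides stay between -0.62 and 0.73.

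Of 5 beta genes with more than 1 probe set, 6 further probe sets were available, and 3 of those had the sign of the brightest one. The second probe set of Pcdhb21 read 89.8, 98.2 and 92.8 in WT and 3.02, 48.3 and 24.6 in cKO, at -1.58 (SE 0.42). That is close to the -1.51 of the first. A second one of Pcdhb16 read 60.8, 62.0 and 89.3 in WT and 5.92, 26.5 and 35.3 in cKO, at -1.24 (SE 0.34). The third of Pcdhb16 had a WT mean of 4.63, and the further ones of Pcdhb14 and Pcdhb15 had WT means of 2.46 and 2.76, too dim to show a fall. Pcdhb4 gave -0.36 and 0.12. Beta genes are alike in sequence, and whether a probe set also reads a related gene was not tested, although only 2 of the 28 beta probe sets carry a name ending in _x_at or _s_at.

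The 3 knockout arrays did not read alike. Against the mean of the WT arrays, the median beta gene was at -0.88 on cKO 1, -0.56 on cKO 2 and -0.59 on cKO 3, and 15, 13 and 13 of the 22 genes lay below the lowest WT array, where 23.8%, 28.0% and 26.1% of all genes did. The median over all genes was between -0.02 and 0.02 on these arrays. Within the knockout group cKO 1 was the lowest array in 10 beta genes and cKO 3 the highest in 10. Counts within WT were close to these, with WT 2 lowest in 9 and WT 3 highest in 9. Of the Setdb1 probe sets, the brightest was lowest on cKO 3 (499.9), and the further ones on cKO 2 (17.9) and cKO 1 (10.6).

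Probe sets of the alpha cluster read no lower on average in the knockout than in WT, apart from 1 at -0.02. Of the 6 probe sets given to several alpha genes together, 3 were given to 14 alpha genes each and 3 to 9 each, and limma called 0 of them over all 45037 probe sets, of which it called 0.0511% lower and 0.224% higher. Unadjusted, p was under 0.05 for 1 of the 6, which was higher in cKO, and for 0 that were lower. The one with the highest signal read 2378, 2089 and 1900.4 in WT and 2682, 3123 and 2086 in cKO, at 0.29 (SE 0.20). Another given to 14 genes read 929, 858 and 1118 in WT and 1068, 1202 and 1207 in cKO, at 0.26 (SE 0.16). In both the groups overlapped, with the higher mean in cKO. The remaining 4 lay between -0.02 and 0.73, and 1 of them, at 28.6 ± 7.28 in WT and 59.3 ± 22.2 in cKO (SD, n = 3), had every cKO array above every WT array. This was so for 7.47% of all probe sets. Such probe sets sum over the cluster and cannot show a choice between its genes.

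Pcdhgc4, a gamma gene of the C type, which neurons use more uniformly than the others, read 498, 366 and 309 in WT and 770.5, 925 and 538 in cKO. Every cKO array was above every WT array, where 7.9% of all genes showed this. The fold change was 0.89 (SE 0.26, adjusted p = 0.293 in limma), short of the threshold, and 0.96 without both arrays numbered 3.

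Other genes of the region were compared through their order in RefSeq. Inside the span of the clusters, 2 further genes were measured. Taf7, a subunit of the general transcription factor TFIID, read 559, 637 and 836 in WT and 442, 477 and 549 in cKO, at -0.44 (SE 0.18, adjusted p = 0.526), with no overlap. Slc25a2, a mitochondrial ornithine carrier, was at -0.04 (SE 0.18). Of the 10 measured genes before the clusters and the 10 after them, limma called 0, and unadjusted p was under 0.05 for 1 that was lower and 1 that was higher, where 4.39% of all genes were lower and 5.17% higher by that measure. The medians were -0.18 and -0.11, with 9 of 10 and 6 of 10 genes below 0, beside 8880 of all 18193 genes. Without overlap, 2 of the 20 were lower, near the 7.64% of all genes. These were Hars, a histidyl-tRNA synthetase, at -0.19, and Rell2, which read 532, 539 and 535 in WT and 411, 417 and 401 in cKO, at -0.37 (SE 0.11, adjusted p = 0.297). Over the 438 other measured genes of the chromosome the median was 0.01.

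The non-clustered protocadherins had no common direction. Their median fold change was 0.12 over 12 genes, with 7 above 0 and 5 below, and limma called 0 of the 12, where 0.627% of all genes were called in either direction. Unadjusted, p was under 0.05 for 4 that were higher and 1 that was lower, beside the 5.17% and 4.39% of all genes. Without overlap, 3 were higher and 1 lower, that is 4 of 12, against 15.5% of all genes in either direction. On the brightest probe sets, 0 of the 12 had a fold change beyond 1 in either direction. The count above 0 was between 6 and 9 under the other settings that kept all 12 genes. Of 21 further probe sets of these genes, 9 had the sign of the brightest one.

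**Figure D3:**
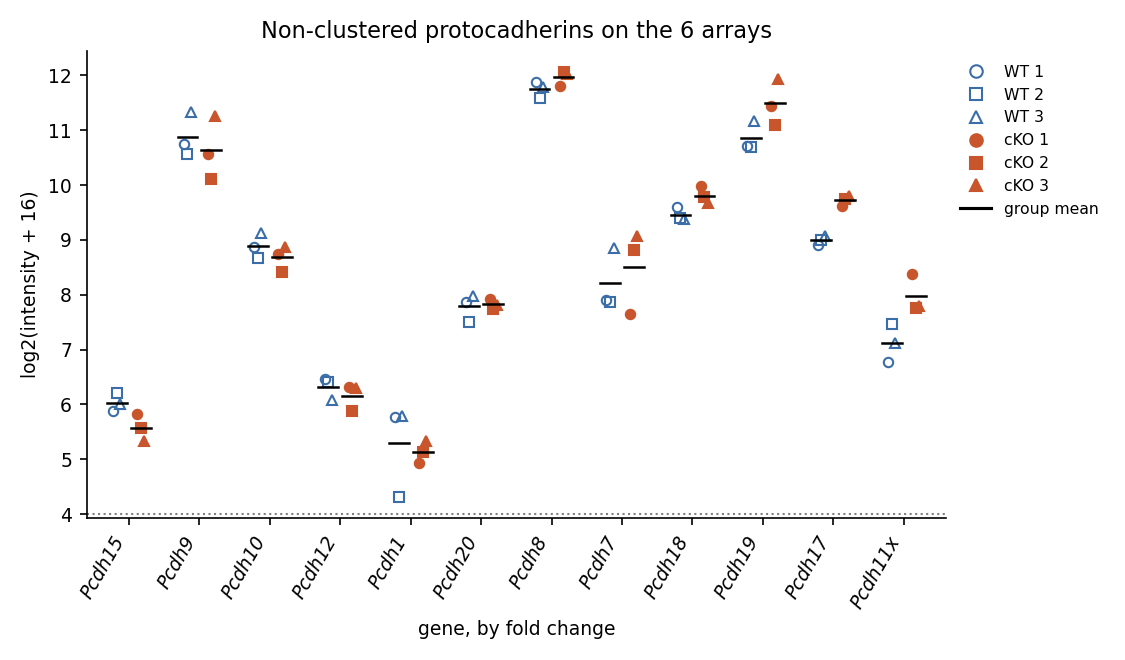
Log2(intensity + 16) of the 12 non-clustered protocadherins on each of the 6 arrays, ordered by fold change; open blue symbols are WT, filled orange symbols cKO, the shape gives the array number, black bars are group means and the dotted line marks an intensity of 0. Pcdh17, Pcdh11x and Pcdh18 have all cKO arrays above all WT arrays, and Pcdh15 the reverse.

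Upstream sequence is shown for Pcdh17, the non-clustered member with the smallest p, and for Pcdh8, the one with the highest mean signal, so that the CpG content of both promoters can be seen. The sequences are the 250 bases before the RefSeq start in GRCm38.p6, chr14:84443313-84443562 on the plus strand for Pcdh17 and chr14:79771313-79771562 on the minus strand for Pcdh8, written along the gene's strand with each CG in capitals.
Pcdh17: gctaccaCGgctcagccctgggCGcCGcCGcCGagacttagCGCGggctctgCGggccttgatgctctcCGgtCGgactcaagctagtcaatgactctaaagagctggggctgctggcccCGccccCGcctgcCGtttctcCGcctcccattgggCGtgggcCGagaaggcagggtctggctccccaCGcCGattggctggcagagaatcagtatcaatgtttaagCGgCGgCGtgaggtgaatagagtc
Pcdh8: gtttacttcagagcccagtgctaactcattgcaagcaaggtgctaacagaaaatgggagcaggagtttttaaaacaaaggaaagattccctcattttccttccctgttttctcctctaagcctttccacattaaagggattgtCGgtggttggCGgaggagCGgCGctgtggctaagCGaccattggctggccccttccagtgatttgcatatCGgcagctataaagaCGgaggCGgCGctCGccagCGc
The Pcdh17 window holds 21 CG and the Pcdh8 window 11, against a median of 6 over 32851 RefSeq promoter windows of the same length, of which 16.3% hold at least 21 and 35.6% at least 11. The table matched 9 of the 12 non-clustered genes. The others ran from 3 CG in Pcdh20 to 23 in Pcdh18. A relation between CpG content and the fold changes was not tested.

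Pcdh17, of the delta-2 group, acts at the presynapse and in axon growth. It read 463, 495 and 519.6 in WT and 769, 838 and 875 in cKO. Both groups were tight and well apart, at a fold change of 0.73 (SE 0.12, adjusted p = 0.0744 in limma), just short of the threshold. It passed when genes below the median mean were left out (adjusted p = 0.0121), with trend and robust settings (0.0159), with a pseudocount of 64 (0.0275) and with array weights (0.0471). It was at 0.73 without both arrays numbered 3 (adjusted p = 0.273). Its other probe set read 236, 199 and 685 in WT and 368, 385 and 899 in cKO, at 0.63 (SE 0.54), with both arrays numbered 3 far above the rest.

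Pcdh11x and Pcdh19 lie on the X chromosome. Pcdh11x, of the delta-1 group, read 93.2, 162 and 123.2 in WT and 319, 202 and 206 in cKO, at 0.86 (SE 0.25, adjusted p = 0.300). Its second probe set read 14.1, 42.5 and 11.8 in WT and 90.2, 63.6 and 77.2 in cKO, at 1.34 (SE 0.31, adjusted p = 0.263 over all probe sets). On both probe sets the groups did not overlap. The brightest gave 0.95 without both arrays numbered 3, which carried the Xist signal.

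Pcdh19, the gene of a female-limited epilepsy, read 1664, 1629.5 and 2287 in WT and 2779, 2173 and 3884 in cKO. Each array numbered 3 was the highest of its group, and cKO 2 was below WT 3. The fold change was 0.64 (SE 0.25, adjusted p = 0.489), and 0.57 without both arrays numbered 3. Its 2 further probe sets gave 0.48 and 0.47.

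Pcdh18 read 758, 657 and 650.2 in WT and 992, 863 and 795 in cKO, at 0.35 (SE 0.14, adjusted p = 0.500), without overlap. Its further probe sets overlapped, at 0.23 and, from a WT mean of 56.4 to a cKO mean of 30.2, at -0.77, and the mean over its probe sets gave -0.06, so no direction is given. Summed intensities of 12 genes of meninges and mesenchyme overlapped between the groups, from 1678 to 3671 in WT and from 1308 to 3920 in cKO. Pcdh8, a protein of active synapses and of the segmenting embryo, was at 3455 ± 364 in WT and 3982 ± 368 in cKO (SD, n = 3), at 0.21 (SE 0.14). Its other probe set was also at 0.21.

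Pcdh10, an axon growth protocadherin, had 6 probe sets. The brightest read 451, 389 and 546 in WT and 414, 327 and 452 in cKO, at -0.21 (SE 0.19), and the other 5 fell on both sides of 0. Pcdh9 read 1712, 1497 and 2551 in WT and 1502, 1090.5 and 2422 in cKO, at -0.24 (SE 0.34), with the arrays numbered 3 highest in both groups. Another of its probe sets was steadier, at 1410.3 ± 5.56 in WT and 1585 ± 91.7 in cKO, at 0.17 (SE 0.13), without overlap. Pcdh7 and Pcdh20 were at 0.30 (SE 0.44) and 0.04 (SE 0.16). Pcdh7 ran from 217 to 445 in WT and from 184 to 523 in cKO, so its arrays differed more within each group than between them.

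Pcdh15, a tip-link protein of sensory hair cells, was dim, at 42.9, 58.0 and 48.3 in WT and 40.9, 31.3 and 24.1 in cKO (-0.46, SE 0.17, adjusted p = 0.463). Another of its probe sets was at 0.88, from a WT mean of 16.05, so no direction is given. Pcdh12, a protocadherin of endothelial cells, was at 64.4 ± 10.96 in WT and 56.3 ± 11.6 in cKO (SD, n = 3), at -0.16 (SE 0.18). Summed intensities of 14 endothelial genes were lower in cKO, from 2034 to 2245 against 2634 to 2973 in WT, with 6 of the 14 lower without overlap, against 7.64% of all genes. The defining genes Cdh5 and Pecam1 overlapped, at -0.19 and 0.06. Their part in the Pcdh12 value was not tested. Pcdh1, an epithelial protocadherin, was at -0.15 (SE 0.41) with a WT array at 3.92. Pcdh1 and Pcdh12 are among the 10 measured genes after the clusters.

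**Figure D4:**
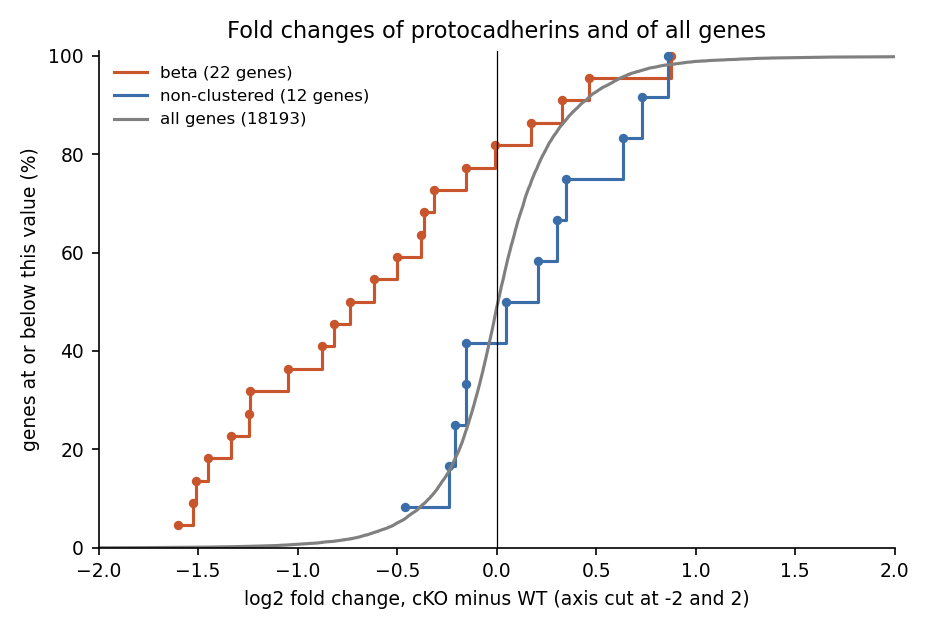
Cumulative share of genes, in percent, at or below each log2 fold change, cKO minus WT, for the 22 beta genes, the 12 non-clustered genes and all 18193 genes; points are single genes. The beta curve lies to the left of the curve of all genes over most of its length (median -0.68 against 0.01), and the non-clustered curve to the right in its upper part (median 0.12).

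Genes known to control the clusters were measured in 17 of 18 cases, and limma called 0 of them. Unadjusted, p was under 0.05 for 1 that was higher, Atf7ip, and 1 that was lower, Setdb1 itself, the deleted gene. Over all genes, 5.17% were higher and 4.39% lower by that measure. Without overlap, 2 of the 17 were higher (Atf7ip and Dnmt3a, at 0.20) and 2 lower (Setdb1 and Ctcf). The shares over all genes were 7.9% and 7.64%. Atf7ip, the partner that stabilises SETDB1, read 2471, 2702 and 2566 in WT and 4412, 3492 and 5467 in cKO. The groups did not overlap, at 0.76 (SE 0.18, adjusted p = 0.204). Ctcf, whose protein binds the cluster promoters and enhancers, read 3416, 3463 and 3838 in WT and 2919.9, 2812 and 3305 in cKO, at -0.25 (SE 0.13), without overlap, and its unadjusted p in limma was 0.0996. Dnmt3b, a DNA methyltransferase that acts on the cluster promoters, was at 0.27 (SE 0.16). The median of the list was -0.02.

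Proteins that bind protocadherin tails or process them were measured in 15 of 18 cases. Limma called 0, where unadjusted p was under 0.05 for 2 that were lower, beside 4.39% of all genes, and the median was -0.07. In 3 of the 15 every cKO array lay below every WT array, against 7.64% of all genes. In 1, Psen2, at 0.20 (SE 0.12), the reverse held, against 7.9% of all genes. The 3 that were lower all belong to the WAVE complex, which drives branched actin and accounts for 8 of the 15 measured genes. The list had not been divided by complex in advance. Abi2 read 3826, 3925 and 3892 in WT and 2824, 3302 and 3148 in cKO, at -0.33 (SE 0.12). Wasf1 and Nckap1 were at -0.31 (SE 0.12) and -0.29 (SE 0.13). The other 5 (Abi1, Brk1, Cyfip2, Wasf2 and Wasf3) overlapped, between -0.22 and 0.21.

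Of 32 other genes of the cadherin superfamily, limma called 0, where unadjusted p was under 0.05 for 4, all lower, beside 4.39% of all genes. The median was -0.12, and 4 of 32 were lower without overlap, against 7.64% of all genes. Clstn2, a calsyntenin of synapses, read 1807, 1770.2 and 1285 in WT and 509.6, 923 and 741 in cKO, at -1.17 (SE 0.25, adjusted p = 0.158). Cdh4, the retinal cadherin, was at -0.90 (SE 0.30), Cdh8, a cadherin of cortical areas, at -0.49 (SE 0.14), and Fat3 at -0.46 (SE 0.16).

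Summed markers of some other cells were also lower in cKO. Cajal-Retzius cells are the reelin-secreting neurons of the cortical surface. Summed intensities of 10 of their genes were from 8697 to 9377 in WT and from 4687 to 5783 in cKO. Reln made up most of these sums, at 6286, 6198 and 6552 in WT and 2864, 2507 and 3197 in cKO. It was past the threshold (-1.15, SE 0.14, adjusted p = 0.0266 in limma). Of the 10 genes, 8 were below 0 and 5 were lower without overlap, against 7.64% of all genes. Nhlh2 and Ebf3 were above 0, at 0.14 and 0.16. Sums of 7 pericyte genes were from 2323 to 2597 in WT and from 1818 to 1975 in cKO, but the members were mixed. Of the 7, 5 were below 0, and 3 were lower without overlap and 1 higher, against 7.64% and 7.9% of all genes. Rgs5 was at -0.60 and Abcc9 at -1.05, Anpep at 0.94 from a WT mean of 4.13, and Notch3 and the defining gene Pdgfrb overlapped, at 0.21 and -0.06. None of these lists had a member below an intensity of 16 on all arrays. Sums of 12 genes of the ventral telencephalon, at 3530.2 to 5196 and 4389 to 4749, and of 10 microglial genes, at 1640.3 to 1939 and 1328 to 1794, overlapped. Of the 12 ventral genes, 3 were higher without overlap, against 7.9% of all genes, and 0 were lower. These were Gad1, at 0.48, Lhx6, at 0.19, and Nkx2-1, at 1.01 from a WT mean of 10.8. Limma called 0 of the 12, with 8 above 0 and 4 below. The part of these cells in the beta result was not tested.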

How the data were processed

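Arrays were made from biotin-labelled cRNA of 250 ng total RNA, per the labels' protocols. The values deposited by the authors are intensities on a linear scale, 1 per probe set and array, from the Affymetrix Expression Console per the submitters' processing notes. The summary algorithm is not given in the sources used here. Arrays have near-equal trimmed means, so a common scaling had been applied. Of 45037 probe sets, 34945 were given to 1 gene by the platform annotation, 932 to several and 9160 to none.

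Intensities were taken to log2(intensity + 16). Each gene was represented by its brightest probe set, by the mean over the 6 arrays. Genotype was fitted over 18193 genes with limma 3.58.1 in R 4.3.3 (lmFit, eBayes). P-values were adjusted by Benjamini-Hochberg over all genes and called below 0.05. All errors of fold changes are moderated standard errors, and the pseudocount understates changes of dim genes. The 3 arrays per group limit the precision. The same fit on all probe sets served for further probe sets. The fit was tested on simulated data.

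The members and lists were chosen with earlier results of these data known, so lists are described by counts and medians without a test. Named in full were members past the threshold, up to 6 of each subfamily by p and the 3 brightest, and of other lists up to 4 by p; the remaining members are given in brief. Alternatives were quantile normalization, median centring, a filter on dim genes, pseudocounts of 1 and 64, trend and robust eBayes, array weights, no _x_at or _s_at probe sets, the mean over probe sets, the replicate block, leaving out single arrays or both arrays numbered 3, and those arrays as a covariate. Promoters were read from RefSeq windows.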

Additional observations from a re-analysis of the deposited data

How the results depend on the processing

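The main analysis called 3 beta genes lower, 0 non-clustered genes, and 44 genes lower and 70 higher over the whole table. The beta median of -0.68 was negative wherever it could be computed; no beta gene was left when genes below the median mean were removed, which gave 95 genes lower, 92 higher and 1 non-clustered gene. With a pseudocount of 1 there was 1 beta gene, 13 lower and 45 higher, at a beta median of -1.05. With one of 64 there were 90 lower, 126 higher and 1 non-clustered gene, at a beta median of -0.30. Trend and robust settings gave 109 lower, 135 higher and 1 non-clustered gene, and array weights 81, 108 and 1; that gene was Pcdh17 each time. The mean over probe sets gave 1 beta gene and 19 lower. Arrays numbered 3 as a covariate gave 1 beta gene, and leaving out both gave 0, with 0 genes lower and 8 higher. Leaving out 1 array gave 0 to 1 beta genes, 1 to 9 lower and 25 to 44 higher; the beta median ran from -0.71 to -0.57 and the non-clustered median from 0.01 to 0.18. Fewer arrays lower the power; for the other settings the cause was not tested. Quantile normalization, median centring and leaving out _x_at and _s_at probe sets moved none of these counts by more than 1.5 times. The numbers in the titles are not stated to pair the arrays. Deviations of same-numbered arrays correlated at 0.07, 0.17 and 0.37 over genes, and those of differently numbered arrays at between -0.27 and 0.15. WT 1 correlated better with cKO 2 (0.10) than with cKO 1. Deviations within a group sum to 0, so these values cannot settle whether the arrays were paired. The main fit took no pairing. With the replicate block limma called 0 beta genes, 1 gene lower and 16 higher (2197 genes had an unadjusted p under 0.05). Over members and settings, 28 calls of single genes were lost and 6 gained, all with the direction kept. Dim signal limits what the arrays can show for beta genes.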
